A study of Mus musculus with 6 samples.

Results

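Vascular calcification and osteochondrogenic genes were examined by RNA-seq in cultured aortic vascular smooth muscle cells (VSMCs) with and without Smyd2, which encodes a lysine methyltransferase. The 10 genes were chosen by symbol and comprise promoters of calcification or markers of an osteochondrogenic state (Runx2, Sox9, Msx2, Alpl, Ibsp and Acan) and inhibitors of calcification (Mgp, Enpp1, Tnfrsf11b and Spp1). Of these 10 genes, 8 had a row among the 18112 genes of the expression table, and for Acan and Ibsp no row was used here. Spp1 is counted with the inhibitors but is also a matrix gene of osteoblasts, so its level can be read in either role.

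The comparison was between 3 Smyd2 fl/fl libraries and 3 Smyd2 SMC-/- libraries, each from primary cells of the mouse aorta on the C57BL/6 strain. Smyd2 fl/fl mice carry loxP sites around exon 2 of Smyd2, and in Smyd2 SMC-/- mice this exon is removed by a Cre recombinase expressed from the SM22α (Tagln) promoter, which is active in smooth muscle but can also act in other cells. According to the methods, the mice were 8 to 10 weeks old, the surrounding tissue, the endothelium and the adventitia were removed before the cells of the media were isolated, staining for smooth muscle actin was the check on purity, and the cells were used at passage 4 after overnight starvation with RNA taken by TRIzol, whereas the sample labels give passage 6, medium with 10% FBS and other kits for extraction and library preparation. How many mice stand behind a library, and whether mice were pooled, is not given in the sources used here.

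Calcification of the arterial media resembles bone formation in several respects. VSMCs can lose contractile proteins and take up transcription factors of bone and cartilage such as RUNX2, SOX9 and MSX2, and mineral then forms on matrix and vesicles where tissue-nonspecific alkaline phosphatase (Alpl) breaks down pyrophosphate. Healthy VSMCs oppose this with matrix Gla protein (Mgp), which needs vitamin K-dependent carboxylation, with pyrophosphate made by ENPP1, with osteoprotegerin (Tnfrsf11b), a decoy receptor for RANK ligand, and with osteopontin (Spp1), a phosphoprotein that binds mineral.

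Levels are given as FPKM (fragments of a gene divided by transcript length and by the library's mapped fragments). Values of a group are listed in the order of its replicates 1, 2 and 3 throughout. From the steps between low FPKM values, the libraries were estimated to hold about 18100000, 19550000 and 19100000 fragments in the fl/fl group and 16700000, 19050000 and 18650000 fragments in the SMC-/- group. Such an estimate is rough, because between 70.1% and 75.1% of the low values came within 0.15 of a whole fragment, and fragment numbers given from them cover counting error only. The deleted gene was checked first. Smyd2 stood at 7.87, 3.10 and 3.0 FPKM in the fl/fl group, against 1.67, 0.40 and 0.80 FPKM in the SMC-/- group. The highest SMC-/- value was under the lowest fl/fl value, in the direction of their labels, and the values include fragments from exons that Cre leaves in place. The Smyd2 difference was -1.48 on the log2(FPKM + 1) scale, with an adjusted p of 0.105 by limma over the 12565 genes tested and 0.0189 once limma took the replicate numbers as blocks (the replicate block).

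Replicate 1 of both genotypes stood apart from the other libraries. Across the tested genes, Spearman's correlation was 0.992 between Smyd2 fl/fl replicates 2 and 3 and 0.989 between Smyd2 SMC-/- replicates 2 and 3, but 0.930 and 0.934 between Smyd2 fl/fl replicate 1 and the others of its genotype, and 0.920 and 0.925 for Smyd2 SMC-/- replicate 1. Spp1 and Runx2 differed more between replicate 1 and the others of the same genotype than between the genotypes in pairs 2 and 3. Members in which replicate 1 stands apart are therefore also given by same-numbered pair, with the block or from replicates 2 and 3 alone. The same is done for several genes of the wider lists. Nothing in the labels says that libraries of a genotype came from separate animals or cultures, so p-values measure only the spread between these libraries, which may be technical.

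The smooth muscle label was compared with 7 marker genes, all listed. Summed over these genes, the level was 922, 821 and 814 FPKM in the fl/fl group, against 263, 429 and 376 FPKM in the SMC-/- group. Acta2, the smooth muscle actin gene and the most abundant of the list, made up most of each sum, whereas Myh11 and Myocd were under 0.5 FPKM in every library. The cells therefore carried abundant actin RNA but little RNA of the most restricted contractile markers in both genotypes. Tagln, the transgelin gene, measured 80.5, 79.1 and 70.3 FPKM in the fl/fl group, against 12.5, 87.3 and 57.1 FPKM in the SMC-/- group. It was thus much lower in Smyd2 SMC-/- replicate 1 than in the other libraries. Acta2 was lower in Smyd2 SMC-/- cells (log2 difference -1.55, limma adjusted p 0.00803), and it was the only 1 of the 5 tested smooth muscle markers that passed. Without Acta2 the sums overlapped, at 161, 139 and 131 FPKM in the fl/fl group, against 62.3, 161 and 114 FPKM in the SMC-/- group. In bulk RNA, fewer cells that express a gene and less RNA per cell cannot be told apart.

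In the same-numbered pairs, all 4 inhibitors were higher in Smyd2 SMC-/- cells in all 3 pairs, and 3 of the 4 listed promoters or markers were lower in all 3 pairs. Over all 18112 listed genes, 3848 (21.2%) were higher and 4234 (23.4%) were lower in all 3 pairs. Smyd2 SMC-/- libraries lay wholly above the Smyd2 fl/fl libraries for 2 members, Tnfrsf11b and Enpp1, and wholly below for 1, Sox9, where 1983 (10.9%) and 2180 (12.0%) of all listed genes did so. By limma without a block, 1 member, Tnfrsf11b, was called higher when an adjusted p up to 0.05 was taken as the limit, and 0 members were called lower, whereas 154 genes (1.23%) were called higher and 152 (1.21%) lower of the 12565 tested. At an unadjusted p of at most 0.05 by limma, 2 members were higher and 1 was lower, beside 1151 genes (9.16%) higher and 1405 (11.2%) lower, and with the block 4 were higher and 2 lower, beside 1841 (14.7%) higher and 2187 (17.4%) lower, which is the background for every unadjusted count below. With the replicate block, limma called Tnfrsf11b and Spp1 higher and Sox9 lower, beside 593 genes (4.72%) higher and 719 (5.72%) lower. With the block and no filter together, chosen after seeing the data, limma called the same 3 members, beside only 137 genes higher and 120 lower of all 18112. From replicates 2 and 3 alone, limma called 4 members higher and 1 lower, beside 1494 genes (11.9%) higher and 2156 (17.2%) lower, so the members' calls have to be read against a background that differs between these fits. Enpp1 is among the members higher in both unadjusted counts and from replicates 2 and 3 alone. Its mean reached the filter of 0.5 FPKM only through the SMC-/- libraries. Rescaling the FPKM to TPM moved the median log2 difference of the tested genes by 0.113 and the split of calls to 247 higher and 99 lower, and in the fit without the block each listed member kept its sign and its side of the limit. The fit with the block and that of replicates 2 and 3 alone were not rescaled.

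**Figure D1:**
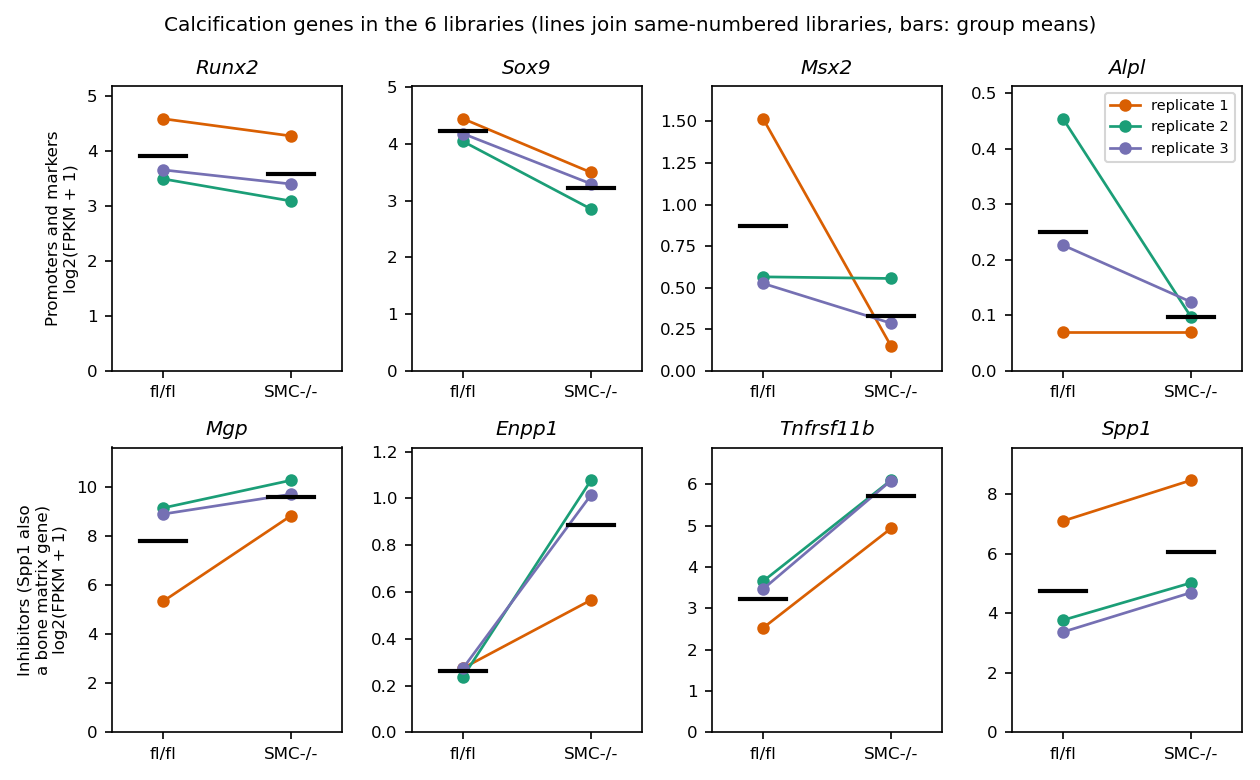
Level of the 8 listed calcification genes in each library, as log2(FPKM + 1), with fl/fl on the left and SMC-/- on the right of each panel. Lines join libraries with the same replicate number, black bars are group means, and the vertical axes start at 0 but differ between panels. All 4 genes of the lower row are higher in SMC-/- along each of their 3 lines, Runx2, Sox9 and Msx2 are lower along theirs (Msx2 in pair 2 by very little), and replicate 1 lies apart for Runx2, Mgp and Spp1.

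By mean FPKM in Smyd2 fl/fl cells (mean ± SD, n = 3), the order of the members was Mgp at 358 ± 280, Spp1 at 52.7 ± 72.2, Sox9 at 17.8 ± 2.69, Runx2 at 15.0 ± 7.03, Tnfrsf11b at 8.82 ± 3.60, Msx2 at 0.927 ± 0.808, Enpp1 at 0.200 ± 0.0173 and Alpl at 0.197 ± 0.162. The ranges of Mgp and Spp1 overlapped, with Spp1 above Mgp in Smyd2 fl/fl replicate 1, as did those of Spp1, Sox9 and Runx2, those of Runx2 and Tnfrsf11b and those of Enpp1 and Alpl, so these neighbours did not differ beyond their spread. In Smyd2 SMC-/- cells, Tnfrsf11b at 54.8 ± 21.8 FPKM (n = 3) stood above Runx2 at 11.8 ± 5.77 and Sox9 at 8.44 ± 2.06, and Enpp1 at 0.870 ± 0.341 stood above Msx2 at 0.267 ± 0.184. By group mean, Mgp was the most abundant member in both genotypes, and it ranked 84 among the 18112 listed genes by its mean over the 6 libraries.

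Gene positions below are those of the GENCODE M21 annotation of GRCm38. Among the transcription factors, Runx2 (chr17:44495987-44814797, minus strand), the master regulator of osteoblast differentiation, was well expressed in both genotypes. Runx2 measured 23.1, 10.3 and 11.6 FPKM in the fl/fl group, against 18.4, 7.53 and 9.57 FPKM in the SMC-/- group. Each Smyd2 SMC-/- library was below its same-numbered Smyd2 fl/fl library, but replicate 1 was high in both genotypes and the groups overlapped. The ratios of SMC-/- to fl/fl were 0.797, 0.733 and 0.823 in pairs 1, 2 and 3. Runx2 was not called, with a log2 difference of -0.32 (SE 0.399) and a limma adjusted p of 0.715 without and 0.102 with the block. Without Smyd2 fl/fl replicate 1 the difference was 0.01, so that its sign without a block rested on that library, but from replicates 2 and 3 alone it was -0.33 (limma adjusted p 0.113).

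Sox9 (chr11:112782224-112787760, plus strand), which drives the cartilage programme, differed more clearly. Sox9 measured 20.7, 15.5 and 17.1 FPKM in the fl/fl group, against 10.3, 6.22 and 8.82 FPKM in the SMC-/- group. The groups did not overlap, with the SMC-/- libraries the lower, and the fl/fl mean was 2.10 times the SMC-/- mean. The log2 difference was -1.01 with a 95% confidence interval of -1.50 to -0.51, and the limma adjusted p was 0.0615 without the block, 0.0183 with it and 0.00325 from replicates 2 and 3 alone. Quantile normalisation also brought it past the threshold, with a limma adjusted p of 0.0459, as did leaving out Smyd2 SMC-/- replicate 1, with 0.0392. It did not pass at a pseudocount of 0.1 (limma adjusted p 0.0627), with no filter (limma adjusted p 0.0868), after rescaling to TPM (limma adjusted p 0.0983) or without any 1 of the other 5 libraries (limma adjusted p 0.108 to 0.218). A two-sided exact permutation test gave p = 0.1, the smallest value that 3 against 3 libraries allow. The same exact test gave p = 0.1 for Tnfrsf11b and Enpp1, and p from 0.2 (Msx2) to 0.5 (Runx2 and Spp1) for the other listed members.

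Msx2 (chr13:53466884-53473074, minus strand), a homeobox factor of osteogenic mesenchyme, was near the limit of detection. Msx2 measured 1.86, 0.48 and 0.44 FPKM in the fl/fl group, against 0.11, 0.47 and 0.22 FPKM in the SMC-/- group. Only Smyd2 fl/fl replicate 1 held a clear signal of about 81 fragments, the other libraries held between about 4 and 23, and the groups overlapped. The ratios of SMC-/- to fl/fl were 0.0591, 0.979 and 0.50 in pairs 1, 2 and 3, so that pair 2 was nearly equal. Its mean reached the filter of 0.5 FPKM only through the fl/fl libraries. The log2 difference of -0.54 (SE 0.31) was not called, with a limma adjusted p of 0.393. Without Smyd2 fl/fl replicate 1 the difference was -0.21, and from replicates 2 and 3 alone it was -0.12 (limma adjusted p 0.573).

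Alpl (chr4:137741733-137796384, minus strand), the enzyme that removes pyrophosphate and is the usual marker of mineralising cells, was barely detected. It measured 0.05, 0.37 and 0.17 FPKM in the fl/fl group, against 0.05, 0.07 and 0.09 FPKM in the SMC-/- group. These levels stand for about 2, 18 and 8 fragments in fl/fl and 2, 3 and 4 in SMC-/- libraries, with replicate 1 equal in both genotypes and the groups overlapping. Its mean was under the filter, and in the fit without a filter the log2 difference was -0.15 with a 95% confidence interval of -0.39 to 0.08 and a limma adjusted p of 0.506. Leaving out 1 library moved the difference from -0.24, without Smyd2 fl/fl replicate 1, to -0.05, without Smyd2 fl/fl replicate 2. Whether depth or the spread between libraries limits this comparison was not tested.

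Of the inhibitors, Tnfrsf11b (chr15:54250619-54278484, minus strand), the gene of osteoprotegerin, had the largest log2 difference among the 8 listed members in the fit to all 6 libraries. Tnfrsf11b measured 4.77, 11.6 and 10.1 FPKM in the fl/fl group, against 29.6, 67.6 and 67.2 FPKM in the SMC-/- group. All Smyd2 SMC-/- libraries lay above all Smyd2 fl/fl libraries, and replicate 1 was the lowest in each genotype. The ratios of SMC-/- to fl/fl were 6.20, 5.81 and 6.67 in pairs 1, 2 and 3. The log2 difference was 2.49 (SE 0.419), higher in 3 of 3 pairs, with a limma adjusted p of 0.0409 without and 0.00284 with the block, and from replicates 2 and 3 alone it was 2.53 with a limma adjusted p of 1.06e-05. The call without the block was lost with no filter on low genes, at a limma adjusted p of 0.0654. It was also lost without Smyd2 fl/fl replicate 1, 2 or 3, at limma adjusted p of 0.0639, 0.116 and 0.143, and without Smyd2 SMC-/- replicate 2 or 3, at 0.157 and 0.172, while the log2 difference stayed between 2.14 and 2.88 in the leave-one-out fits.

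Spp1 (chr5:104435118-104441050, plus strand), the gene of osteopontin, varied far more between replicates than between genotypes. Spp1 measured 136, 12.6 and 9.35 FPKM in the fl/fl group, against 352, 31.4 and 24.8 FPKM in the SMC-/- group. Replicate 1 was high in both genotypes, so the groups overlapped, yet each Smyd2 SMC-/- library was above its own pair. The ratios of SMC-/- to fl/fl were 2.59, 2.49 and 2.66 in pairs 1, 2 and 3. Without the block the log2 difference of 1.31 (SE 1.32) had a limma adjusted p of 0.649, and with the block its SE was 0.0903 and its limma adjusted p 0.00662. From replicates 2 and 3 alone it was 1.29, with a limma adjusted p of 0.0018. Leaving out 1 library without the block moved the unpaired difference from 0.11, without Smyd2 SMC-/- replicate 1, to 2.49, without Smyd2 fl/fl replicate 1.

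Mgp (chr6:136872435-136875823, minus strand), whose product is the main mineralisation inhibitor of the arterial wall, was abundant but uneven. Mgp measured 39.5, 563 and 473 FPKM in the fl/fl group, against 452, 1229 and 828 FPKM in the SMC-/- group. Replicate 1 was the lowest library of each genotype, and Smyd2 SMC-/- replicate 1 fell below Smyd2 fl/fl replicates 2 and 3, so that the groups overlapped. The ratios of SMC-/- to fl/fl were 11.4, 2.18 and 1.75 in pairs 1, 2 and 3. Mgp was not called, with a log2 difference of 1.80 (SE 1.02) and a limma adjusted p of 0.382 without and 0.101 with the block. From replicates 2 and 3 alone the difference was 0.97 with a limma adjusted p of 0.0121, and without Smyd2 fl/fl replicate 1 alone it was 0.58, so the larger value rested on that library.

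Enpp1 (chr10:24637914-24712159, minus strand), the ectoenzyme that makes extracellular pyrophosphate, was low in all libraries. Enpp1 measured 0.21, 0.18 and 0.21 FPKM in the fl/fl group, against 0.48, 1.11 and 1.02 FPKM in the SMC-/- group. The Smyd2 fl/fl libraries were close to each other, all Smyd2 SMC-/- libraries lay above them, and the ratio of means was 4.35. These levels correspond to about 26, 24 and 27 fragments in fl/fl and 54, 142 and 128 in SMC-/- libraries, and the mean reached the filter of 0.5 FPKM only through the SMC-/- libraries. The log2 difference of 0.62 (SE 0.2), which understates the change of so low a gene, had a limma adjusted p of 0.155 without and 0.0878 with the block. It passed from replicates 2 and 3 alone, with a limma adjusted p of 0.00544, and without Smyd2 SMC-/- replicate 1, with 0.0472. Both passes are from the filtered genes, which Enpp1 joined through its higher group, so no conclusion is drawn from them. With no filter it was not called (limma adjusted p 0.127 without and 0.103 with the block).

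**Figure D2:**
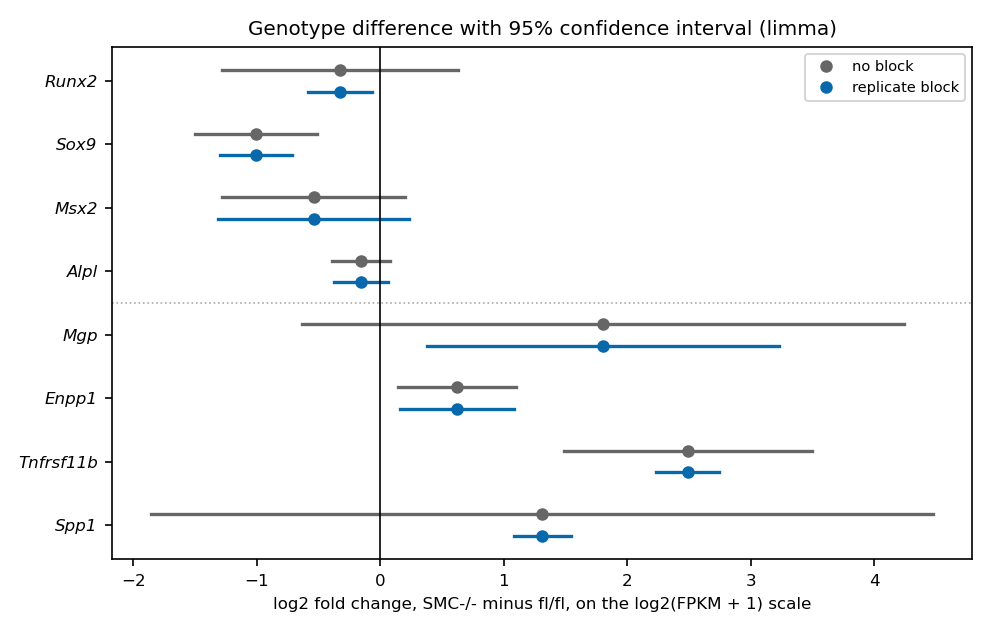
Log2 difference (SMC-/- minus fl/fl, on the log2(FPKM + 1) scale) of each listed member with its 95% confidence interval from limma, without the replicate block in grey and with it in blue. The dotted line separates promoters or markers above from inhibitors below, and Alpl is from the fit without a filter on low genes. The block leaves the points in place and shortens the interval of Spp1 from -1.85 to 4.48 to 1.08 to 1.54.

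Because the RUNX and SOX factors bind short motifs, the 250 bases before the transcription start were searched for the members. A RefSeq window (build GRCm38.p6) was found for 7 of the 10 genes, with 9 windows in all, and none was used for Mgp, Sox9 or Tnfrsf11b. The RUNX core, ACCACA or its reverse complement TGTGGT, stood in 1 window each of Runx2, Enpp1 and Spp1, at 80, 144 and 128 bases before the start. Over all 32851 windows of this length, 4614 (14.0%) held it. The SOX core, ACAATG or its reverse complement CATTGT, stood in the Ibsp window alone among the members, and in 3512 (10.7%) of all windows. The windows of Spp1 (chr5:104434861-104435110, plus strand) and Enpp1 (chr10:24712160-24712409, minus strand) are shown because these inhibitors were higher in all 3 pairs and hold the RUNX letters, in capitals, and the first window of Alpl (chr4:137796385-137796634, minus strand) because this pyrophosphatase acts against ENPP1 and holds no match. A match to these letters is a description of the sequence only.
Spp1: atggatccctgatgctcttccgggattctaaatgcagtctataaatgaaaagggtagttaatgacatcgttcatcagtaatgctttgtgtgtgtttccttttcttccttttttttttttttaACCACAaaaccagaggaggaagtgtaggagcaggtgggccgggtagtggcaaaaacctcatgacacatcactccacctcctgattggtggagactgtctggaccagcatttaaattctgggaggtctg
Enpp1: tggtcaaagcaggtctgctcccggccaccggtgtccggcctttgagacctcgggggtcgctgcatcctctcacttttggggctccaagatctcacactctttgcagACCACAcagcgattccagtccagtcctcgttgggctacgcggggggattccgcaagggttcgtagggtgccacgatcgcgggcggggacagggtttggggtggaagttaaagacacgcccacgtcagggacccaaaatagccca
Alpl: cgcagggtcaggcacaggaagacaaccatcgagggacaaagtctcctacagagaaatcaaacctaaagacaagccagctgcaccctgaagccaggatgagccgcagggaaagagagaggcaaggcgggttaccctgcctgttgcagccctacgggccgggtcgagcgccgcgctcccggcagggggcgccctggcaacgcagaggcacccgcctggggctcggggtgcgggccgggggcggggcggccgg

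Wider lists of related genes were counted in the same fit. Together these 6 lists named 73 symbols, of which 63 were listed and 43 tested, and Ank and Ankh among them stand for the same gene, listed as Ank. Limma called 2 higher and 1 lower without the block, beside 1.23% and 1.21% of all tested genes. With the block it called 6 higher and 4 lower, beside 4.72% and 5.72%. These shares are the background for the calls in each list below. The genes called higher include Nkx3-2 in both fits and Msx1 with the block. Both genes were tested only because their SMC-/- libraries lifted the mean over the filter, so no conclusion is drawn from these counts. The median log2 difference of the 63 listed genes was 0, beside -0.00478 for all 18112 listed genes. In these lists, 18 of the 63 genes were higher and 16 were lower in all 3 pairs, beside 21.2% and 23.4% of all listed genes.

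Of 15 osteochondrogenic transcription factors, all listed and 10 tested, 1 was called higher and 0 lower by limma without the block, and 2 were higher and 1 was lower with it. At an unadjusted p of at most 0.05 by limma without the block, 3 were higher and 1 was lower. The median log2 difference over the 15 was -0.00934. Nkx3-2, a homeobox gene of early cartilage, measured 0.04, 0.29 and 0.19 FPKM in the fl/fl group, against 1.41, 1.77 and 2.21 FPKM in the SMC-/- group. It was above fl/fl in all SMC-/- libraries and, like Msx1 below, its mean reached the filter of 0.5 FPKM only through them, with a log2 difference of 1.25 and a limma adjusted p of 0.0309. Leaving out any 1 library other than Smyd2 SMC-/- replicate 1 ended this call, at limma adjusted p of 0.0536 to 0.162. Msx1, a relative of Msx2, measured 0.23, 0.41 and 0.47 FPKM in the fl/fl group, against 6.67, 2.34 and 2.57 FPKM in the SMC-/- group. Its groups did not overlap, and its log2 difference of 1.72 had a limma adjusted p of 0.058 without and 0.0407 with the block (0.0836 with the block and no filter) and 0.000796 from replicates 2 and 3 alone. It also passed without the block at a pseudocount of 0.1 (limma adjusted p 0.0387), after rescaling to TPM (limma adjusted p 0.0378) and without Smyd2 SMC-/- replicate 1 (limma adjusted p 0.0182), but not with no filter (limma adjusted p 0.0818), after quantile normalisation (limma adjusted p 0.0521) or without any 1 of the other 5 libraries (limma adjusted p 0.105 to 0.188). Msx1 and Msx2 thus had log2 differences of opposite sign. Cbfb, the partner that RUNX proteins need to bind DNA, lay between 24.3 and 30.8 FPKM in all 6 libraries, with a log2 difference of -0.01 that turned to 0.11 after rescaling to TPM and to 0.03 after quantile normalisation.

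Bone matrix and mineralising vesicle genes numbered 17, with 15 listed and 12 tested. Limma called 0 of them without the block, where 3 were higher and 1 was lower at an unadjusted p of at most 0.05. Of these 3 higher genes, the osteocalcin gene Bglap2 reached the filter of 0.5 FPKM only through the SMC-/- libraries. With the block limma called Spp1 higher and Phospho1 lower. The median log2 difference of the 15 was 0.06. Phospho1, a phosphatase that releases phosphate inside matrix vesicles, measured 8.41, 3.13 and 3.46 FPKM in the fl/fl group, against 4.69, 1.73 and 1.46 FPKM in the SMC-/- group. Replicate 1 was again high in both genotypes and the groups overlapped, while each SMC-/- library was below its pair. Its log2 difference of -0.73 had a limma adjusted p of 0.418 without and 0.0416 with the block (0.074 with the block and no filter), and it passed from replicates 2 and 3 alone (limma adjusted p 0.00918). Leaving out 1 library without the block gave -0.35 to -1.11, with no call. The collagen I genes, the main fibre of bone and of the arterial wall, were higher in every Smyd2 SMC-/- library but uneven. Col1a1 measured 362, 444 and 491 FPKM in the fl/fl group, against 1333, 831 and 522 FPKM in the SMC-/- group, and with a log2 difference of 0.96 it was not called (limma adjusted p 0.186 without and 0.139 with the block). Col1a2 gave the same log2 difference of 0.96, with a limma adjusted p of 0.186 without and 0.156 with the block. From replicates 2 and 3 alone the differences were smaller, at 0.49 for Col1a1 and 0.43 for Col1a2 (limma adjusted p 0.133 for each). Without Smyd2 SMC-/- replicate 1, Col1a1 was at 0.62. Sparc, which encodes osteonectin, lay between 596 and 1611 FPKM with overlapping groups and a log2 difference of 0.33 (limma adjusted p 0.648 without and 0.333 with the block). The difference was -0.01 without Smyd2 fl/fl replicate 1 and 0.11 from replicates 2 and 3 alone (limma adjusted p 0.724).

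Most of the listed cartilage matrix genes had a mean under the filter of 0.5 FPKM. Of 16 named, 11 were listed and 5 tested, and limma called 0 without the block, with 0 at an unadjusted p of at most 0.05 as well. With the block 1 was called lower and 0 higher, and the median log2 difference of the 11 was -0.01. The 1 gene called was Prg4, which encodes lubricin, the lubricant of joint surfaces. It measured 3.42, 57.4 and 64.5 FPKM in the fl/fl group, against 1.23, 15.2 and 34.3 FPKM in the SMC-/- group. Replicate 1 was low in both genotypes and the groups overlapped, and the log2 difference of -1.24 had a limma adjusted p of 0.678 without and 0.0356 with the block (0.0768 with the block and no filter). It was not called from replicates 2 and 3 alone (limma adjusted p 0.0978), and leaving out 1 library without the block moved the difference from -0.10, without Smyd2 SMC-/- replicate 1, to -2.51, without Smyd2 fl/fl replicate 1. Col11a1, a fibrillar collagen of cartilage, ranged from 1.98 to 28.2 FPKM, with both highest values in replicate 1, and Col11a2 from 0.31 to 2.63 FPKM. Their log2 differences of 0.39 and 0.35 were not called (limma adjusted p 0.863 and 0.705) and turned negative without Smyd2 SMC-/- replicate 1, at -0.60 and -0.08. Col11a2 was nevertheless higher in all 3 pairs and stayed positive from replicates 2 and 3 alone, at 0.18, whereas Col11a1 was -0.05 there.

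Phosphate and pyrophosphate handling was represented by 12 symbols, Ank and Ankh included, of which 10 were listed and 7 tested. Limma called 0 of these with and without the block. At an unadjusted p of at most 0.05 without the block it had 1 higher, Enpp1, and 0 lower. With the block it had 1 higher, Enpp1, and 1 lower, Ank. Since Enpp1 was among the tested genes only through its SMC-/- libraries, no conclusion is drawn from its place in these counts. The median log2 difference of the 10 was 0.02. Ank, long described as a transporter of pyrophosphate out of the cell, measured 122, 77.8 and 77.4 FPKM in the fl/fl group, against 96.4, 19.0 and 24.1 FPKM in the SMC-/- group. It was below its pair in each SMC-/- library, most in replicates 2 and 3, although SMC-/- replicate 1 lay above fl/fl replicates 2 and 3. Its log2 difference of -1.32 was not called (limma adjusted p 0.276 without and 0.0703 with the block), but passed from replicates 2 and 3 alone, with a limma adjusted p of 9.22e-05, and without Smyd2 SMC-/- replicate 1, with 0.0171. The direction of Ank was thus opposite to that of Enpp1, the other gene of pyrophosphate supply named here. The phosphate importers Slc20a1 and Slc20a2 had log2 differences of 0.45 and 0.05 and overlapping groups (limma adjusted p 0.733 and 0.893). Their signs turned without Smyd2 SMC-/- replicate 1 for Slc20a1, at -0.22, and without Smyd2 SMC-/- replicate 3 for Slc20a2, at -0.06, although Slc20a1 was higher in all 3 pairs (by less than 1% in pair 3) and was 0.09 from replicates 2 and 3 alone.

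The wider list of inhibitors and of the vitamin K cycle named 16 symbols, Ank and Ankh included, with 14 listed and 12 tested. Limma called Tnfrsf11b higher and Bmper lower without the block, and 4 higher and 1 lower with it. Its median log2 difference over the 14 listed genes was 0.28, beside -0.00478 for all listed genes, and since it contains the 4 inhibitors above it is not separate from them. Ahsg, the gene of fetuin-A, a mineral-binding protein made mainly in the liver, measured 0.04, 3.36 and 2.46 FPKM in the fl/fl group, against 2.69, 13.6 and 12.6 FPKM in the SMC-/- group. Replicate 1 was low in both genotypes, each SMC-/- library was above its pair, and the groups overlapped in 1 library. Its log2 difference of 1.85 had a limma adjusted p of 0.221 without and 0.00758 with the block, and 0.000151 from replicates 2 and 3 alone. Vkorc1l1, a vitamin K epoxide reductase, lay at 8.47 to 9.20 FPKM in fl/fl and at 13.6 to 15.9 FPKM in SMC-/- libraries. Without overlap between the groups, its log2 difference of 0.63 had a limma adjusted p of 0.0606 without and 0.041 with the block (0.0768 with the block and no filter), and it passed without the block after rescaling to TPM (limma adjusted p 0.0441) and quantile normalisation (limma adjusted p 0.0401). It did not pass with no filter (limma adjusted p 0.0741), at a pseudocount of 0.1 (limma adjusted p 0.0598) or without any 1 library (limma adjusted p 0.0604 to 0.232). Gas6, another vitamin K-dependent protein, was higher in all 3 pairs with overlapping groups, a log2 difference of 0.50 and a limma adjusted p of 0.408 without and 0.141 with the block. From replicates 2 and 3 alone the limma adjusted p of Gas6 was 0.0137. Leaving out 1 library without the block moved its difference from 0.25, without Smyd2 SMC-/- replicate 3, to 0.82, without Smyd2 SMC-/- replicate 1, with no call.

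Bmper, which encodes a secreted modulator of BMP signals and was counted with the inhibitors, went the other way. Bmper measured 9.50, 10.1 and 8.18 FPKM in the fl/fl group, against 4.53, 2.19 and 2.23 FPKM in the SMC-/- group. All SMC-/- libraries lay below all fl/fl libraries, and the fl/fl mean was 3.10 times the SMC-/- mean. The log2 difference was -1.41 with a limma adjusted p of 0.0444 without and 0.0259 with the block (0.0616 with the block and no filter). The call was lost with no filter (limma adjusted p 0.0668), after rescaling to TPM (limma adjusted p 0.0535) and when any 1 library other than Smyd2 SMC-/- replicate 1 was left out (limma adjusted p 0.0853 to 0.186).

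On the RANK ligand axis, all 5 named genes were listed but only 2 were tested, of which limma called Tnfrsf11b higher and 0 lower, with or without the block and also at an unadjusted p of at most 0.05. Tnfsf11, the gene of RANK ligand, to which osteoprotegerin binds, was at most 0.05 FPKM in every library. Its receptor Tnfrsf11a measured 1.31, 0.25 and 0.36 FPKM in the fl/fl group, against 0.06, 0.24 and 0.19 FPKM in the SMC-/- group, under the filter by its mean. The decoy receptor was therefore the 1 gene of the ligand, receptor and decoy trio that was expressed well above 1 FPKM in every library. Lgr4, another receptor for RANK ligand, lay between 3.13 and 4.39 FPKM with a log2 difference of -0.10 (limma adjusted p 0.807) that was 0.000313 after rescaling to TPM. Over the 5 genes the median log2 difference was -0.0444.

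**Figure D3:**
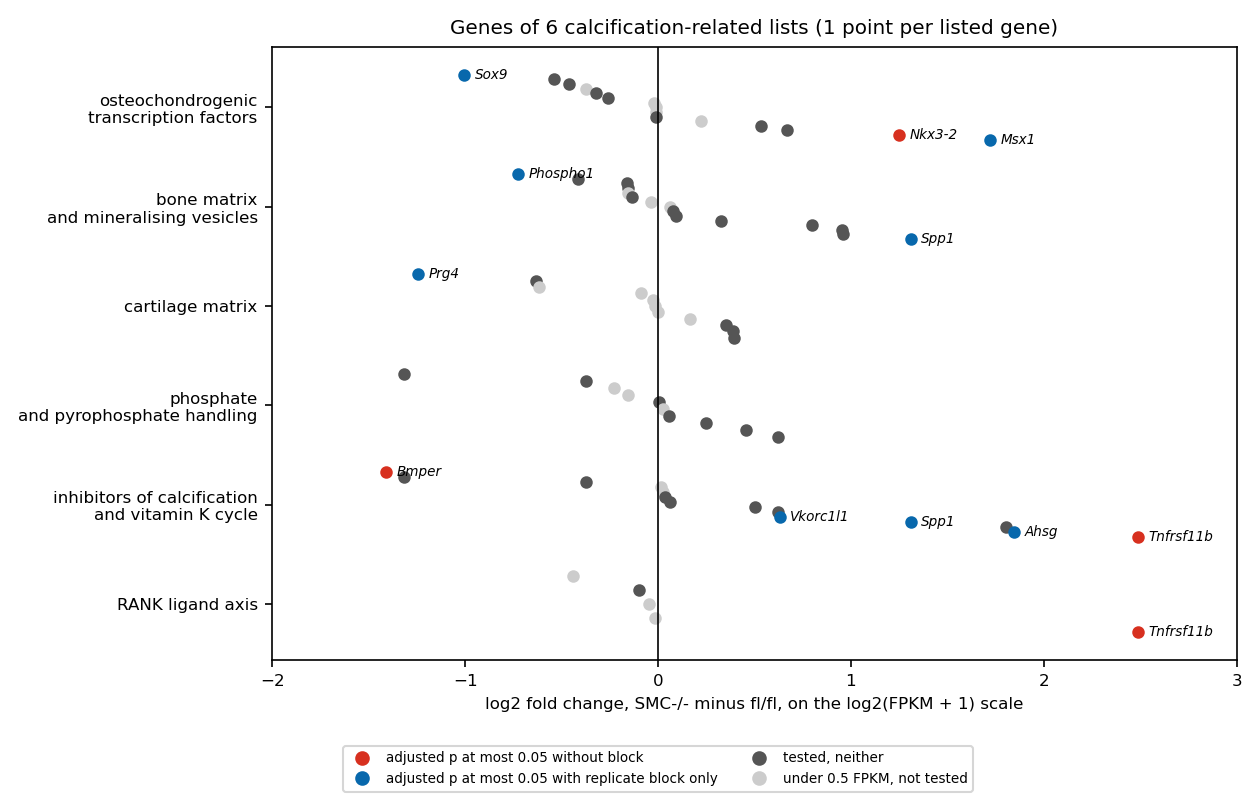
Log2 difference (SMC-/- minus fl/fl, on the log2(FPKM + 1) scale) of every listed gene in the 6 lists, with 1 point per gene and genes in more than 1 list drawn in each. Red points passed limma without the block (Tnfrsf11b, Nkx3-2 and Bmper), blue points passed only with it, dark grey points were tested and passed neither, and light grey points were under 0.5 FPKM. Vertical position within a list only orders the points.

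Markers of other cell types were summed in each library beside these results. Of 9 chondrocyte markers, 4 were listed and 1 was tested, and their sum was 0.46, 0.55 and 0.54 FPKM in the fl/fl group, against 1.73, 0.73 and 0.35 FPKM in the SMC-/- group. Matn3 was their most abundant gene except in Smyd2 fl/fl replicate 1, where Col2a1, the defining cartilage collagen, was above it. Col2a1, Col9a2 and Matn1 were under 0.5 FPKM in all libraries. Osteoblast and osteocyte markers, with 6 of 8 listed, summed to 3.22, 2.37 and 3.0 FPKM in the fl/fl group, against 5.85, 3.8 and 2.10 FPKM in the SMC-/- group. Ifitm5 had the highest mean over all 6 libraries, but Bglap2 and Bglap had higher means than Ifitm5 in the SMC-/- group. Sp7, Dmp1 and Phex were under 0.5 FPKM in all libraries, and the osteocalcin genes Bglap and Bglap2, at 0 to 2.01 FPKM, are near-identical copies whose reads may be divided between them. The near-zero defining markers of both lineages were thus found in libraries of both genotypes, with 0 markers of either list called by limma with or without the block, and at an unadjusted p of at most 0.05 only Bglap2, higher, in both fits, whose mean reached the filter of 0.5 FPKM only through the SMC-/- libraries.

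The methods have the adventitia removed before the cells were taken. Among adventitial fibroblast markers, all 6 were listed and tested, and limma called 0 higher and 1 lower with and without the block. At an unadjusted p of at most 0.05 without the block, 0 were higher and 2 were lower, and with it 2 were higher and 3 lower. Their sum was 178, 444 and 363 FPKM in the fl/fl group, against 41.7, 407 and 372 FPKM in the SMC-/- group. Dcn was the most abundant except in Smyd2 fl/fl replicate 1, where Dpt and Pdgfra were above it. No gene was under 0.5 FPKM in all libraries. Replicate 1 had the lowest sum of each genotype, as it had the lowest Mgp, Tnfrsf11b, Ahsg and Prg4, but in fl/fl this rested on Dcn. Without Dcn the sums were 164, 133 and 106 FPKM in the fl/fl group, against 16.1, 24.4 and 21.9 FPKM in the SMC-/- group, so that fl/fl replicate 1 was the highest and all SMC-/- libraries lay below all fl/fl libraries. Dpt, the gene called, measured 144, 90.3 and 65.5 FPKM in the fl/fl group, against 3.31, 1.15 and 0.63 FPKM in the SMC-/- group (log2 difference -5.28, limma adjusted p 0.00417). It made up most of each fl/fl sum without Dcn, so the order of the libraries in those sums rested largely on Dpt. Dcn and Lum went the other way and were higher in all 3 pairs, at ratios of 1.84, 1.23 and 1.37 for Dcn. Adipocyte markers, with 3 of 4 listed, summed to 6.24, 5.04 and 3.12 FPKM in the fl/fl group, against 119, 5.39 and 6.07 FPKM in the SMC-/- group. The high value was Fabp4 in Smyd2 SMC-/- replicate 1, the library with the highest Spp1, Col1a1 and Slc20a1, whereas Adipoq and Plin1 were under 0.5 FPKM in all libraries.

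Osteoclast and macrophage markers, with 7 of 8 listed, summed to 41.3, 33.7 and 28.5 FPKM in the fl/fl group, against 40.4, 31.0 and 35.1 FPKM in the SMC-/- group. Cd14 was the most abundant except in Smyd2 SMC-/- replicates 2 and 3, where Ctsk was above it, and Ptprc, Adgre1 and Ocstamp were under 0.5 FPKM in all libraries. Endothelial markers, all 6 listed, summed to 1.2, 1.70 and 1.94 FPKM in the fl/fl group, against 1.59, 5.37 and 2.98 FPKM in the SMC-/- group, with Cdh5, Tie1, Tek and Emcn under 0.5 FPKM. Kdr led the SMC-/- libraries and Pecam1 the fl/fl libraries. Pecam1 moved opposite to that sum, at 0.56, 0.88 and 0.92 FPKM in the fl/fl group, against 0.12, 0.18 and 0 FPKM in the SMC-/- group, without overlap. Limma called 0 genes of the osteoclast and macrophage, endothelial and adipocyte lists with or without the block. Without it 1, 1 and 0 were higher and none lower at an unadjusted p of at most 0.05. With the block, 2 of the 4 tested osteoclast and macrophage markers were higher (Ctsk and Csf1r) and 1 was lower (Acp5) at that limit. The endothelial list then had 1 higher and 0 lower, and the adipocyte list 0 either way. The part of the adventitial, adipocyte and smooth muscle markers that moved with replicate 1 or with genotype in the results above was not tested.

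**Figure D4:**
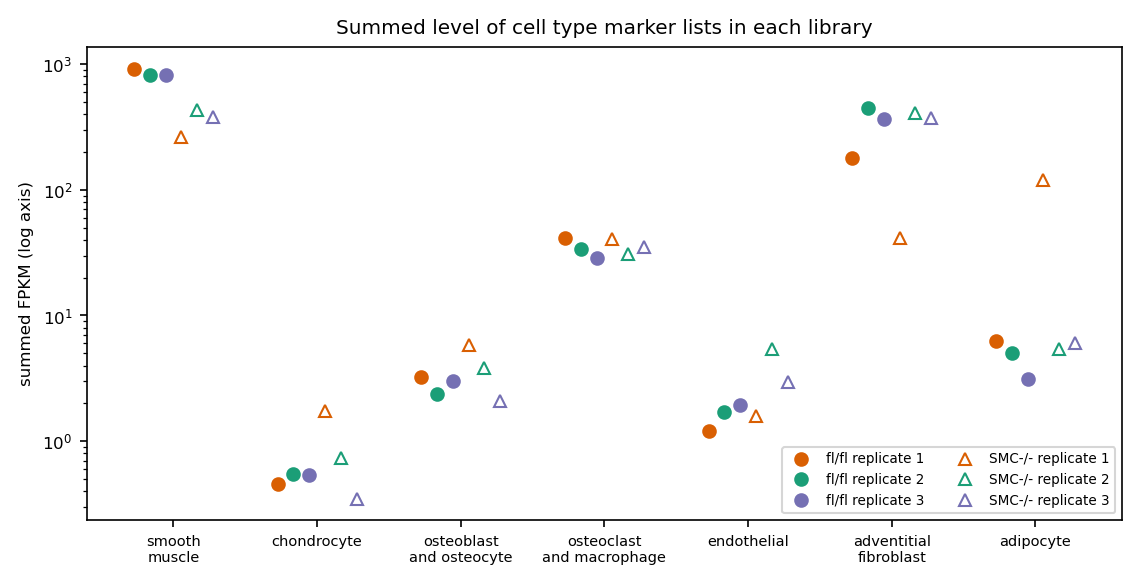
Summed FPKM of each marker list in each library on a log axis, with filled circles for fl/fl, open triangles for SMC-/- and 1 colour per replicate number. The summed smooth muscle level, mostly Acta2, is lower in all 3 SMC-/- libraries (263 to 429 FPKM) than in fl/fl (814 to 922 FPKM). Replicate 1 is apart for the adventitial list, mainly through Dcn in both genotypes, and SMC-/- replicate 1 for the adipocyte list.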

How the data were processed

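RNA of 6 libraries was sequenced on the BGISEQ-500 platform. Read filtering (SOAPnuke), mapping (HISAT, Bowtie2) and expression estimates (RSEM) were done by the authors, who deposited FPKM values rounded to 2 decimals, while tool versions and the genome build are not given in the sources used here.

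Values were transformed to log2(FPKM + 1), and the 12565 genes whose average over the 6 libraries reached 0.5 FPKM were compared between genotypes with limma 3.58.1 in R 4.3.3 (eBayes with trend and robust settings, Benjamini-Hochberg adjustment). All log2 differences are on this scale, SMC-/- minus fl/fl, and understate changes of low genes. Genes were called at an adjusted p of at most 0.05. The members and lists were chosen with earlier results of these data known. Genes named are the 10 members, Smyd2, and from each wider list those called with or without the replicate block plus the 3 with the highest mean FPKM. Marker genes and Tnfsf11 were named after their values were seen.

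Replicate numbers come from the labels, which do not say what they mark. Deviations from the group means correlated at 0.615, 0.460 and 0.527 for same-numbered libraries, so the numbers were taken to pair the libraries, although replicates 2 and 3 correlated as well across numbers (0.439 and 0.461), and replicate 1 with the others at -0.508 to -0.557. Depth was estimated from 4055 genes with 1 listed transcript, with lengths from GENCODE M21 (GRCm38) less 50 bases. The fits were tested on simulated data. Alternatives were a pseudocount of 0.1, no filter, the replicate block, each library left out, rescaling to TPM, quantile normalisation, and replicates 2 and 3 alone, with the block and no filter together added after seeing the data. Python 3.11.15, numpy 2.4.6, pandas 2.3.3 and matplotlib 3.10.9 were used.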

Additional observations from a re-analysis of the deposited data

How the results depend on the processing

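The replicate block left every log2 difference as it was and moved calls: genes called went to 593 higher and 719 lower, members to 2 higher and 1 lower, genes of the wider lists to 6 higher and 4 lower, and Smyd2, at -1.48, passed. All 306 genes called without the block were also called with it, and among the named genes it changed no call other than those given above. With no filter, 139 genes were called higher and 108 lower, 0 members either way, and 1 gene of the wider lists higher and 0 lower. After rescaling to TPM, 247 genes were called higher and 99 lower, with 4 higher and 0 lower in the wider lists, while Cbfb turned to 0.11 and Lgr4 to 0.000313. Quantile normalisation gave 174 genes higher and 168 lower, 1 member higher and 1 lower, 3 genes of the wider lists higher and 2 lower, and Cbfb at 0.0253. From replicates 2 and 3 alone, 1494 genes were called higher and 2156 lower, 4 members higher and 1 lower, 11 higher and 6 lower in the wider lists, Smyd2 at -1.35 passed, and Col11a1 turned to -0.0473. The replicate block and no filter together, an alternative chosen after seeing the data, cut the genes called to 137 higher and 120 lower and gave 2 members higher and 1 lower, 4 genes of the wider lists higher and 1 lower, and Smyd2 at -1.48, which passed, while Phospho1, Prg4, Msx1, Vkorc1l1 and Bmper no longer passed (limma adjusted p 0.0616 to 0.0836).

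Leaving out 1 library at a time gave 16 to 373 genes higher and 16 to 313 lower, 0 to 2 members higher and 0 to 1 lower, and 0 to 4 genes of the wider lists higher and 0 to 3 lower, with the most calls without Smyd2 SMC-/- replicate 1 in each case. Log2 differences that changed sign ranged from -0.67 to 0.0137 for Runx2, -0.0823 to 0.0818 for Cbfb, -0.00503 to 0.50 for Sparc, -0.60 to 1.04 for Col11a1, -0.0798 to 0.61 for Col11a2, -0.22 to 0.82 for Slc20a1 and -0.0557 to 0.18 for Slc20a2. The cause of these changes was not tested. Where fewer libraries were fitted, the tests also had fewer samples. Of the 8 listed members, all but Runx2 kept their direction under every alternative run. Alpl and Msx2 rest on about 2 to 18 and 4 to 81 fragments a library, and neither the RNA of single cells nor mineral itself was measured.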
